A study of Mus musculus with 2 samples.

Results

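The nuclear genes for subunits of respiratory chain complexes I, III and IV and of ATP synthase (complex V) were read in chromatin-associated RNA of activated mouse macrophages. They were chosen by symbol and not by level: a gene was a member if its symbol began with Uqcr or Atp5, with Cox followed by 4 to 8 and a, b or c, or with Nduf followed by a, b, c, s or v and a number only, and if it had a protein-coding transcript. The rule gave 78 gene identifiers under 77 symbols, of 55536 annotated genes and 22028 protein-coding genes. The symbol Atp5o occurs under 2 identifiers. By complex, 7 members encode core subunits and 28 encode accessory subunits of complex I, 8 belong to complex III, 17 to complex IV and 18 to complex V. Ndufa4 and Cox7a2l were counted with complex IV, where their products are known to sit. Atp5s, whose product is not counted among the standard subunits of the enzyme, met the symbol rule and was kept with complex V.

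The series holds 1 group. Bone marrow-derived macrophages (BMDM), primary cells grown from the marrow of C57BL/6J mice, were treated with lipid A at 100 ng/ml for 75 min, their chromatin fraction was isolated, and its total RNA was sequenced after removal of ribosomal RNA. Lipid A is the part of bacterial lipopolysaccharide that binds the receptor complex of TLR4. The labels give no age or sex and name no genetic change. The 2 libraries are labelled biological replicates 1 and 2 but carry the same donor label. Whether the cells came from separate mice is not stated, so an SD here may measure the spread of cultures and not of animals. The input was 250 ng of RNA for replicate 1 and 500 ng for replicate 2, and fragments were 250 to 400 bases long. Untreated cells were not analysed here, so levels after treatment are described and nothing is said of a response to lipid A.

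Complex I takes electrons from NADH, complex III passes them from ubiquinol to cytochrome c, and complex IV hands them to oxygen. These steps pump protons across the inner mitochondrial membrane, and complex V uses the gradient to make ATP. Each complex mixes subunits encoded in the nucleus with a few encoded in mitochondrial DNA, and several complex IV subunits exist as alternative forms for heart and skeletal muscle or for testis. In macrophages, ligands of TLR4 are known to shift energy metabolism over hours from respiration towards glycolysis. RNA bound to chromatin is enriched for transcripts that are still being made or spliced, so it is nearer to nascent RNA than to the messenger RNA pool of the cell.

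Annotated genes held 21453617 estimated counts in replicate 1 and 29638814 in replicate 2. Protein-coding genes took 47.0% of them in replicate 1 and 66.2% in replicate 2. In TPM (counts scaled by length and by the library's sum) protein-coding genes took 14.0% in replicate 1 and 25.0% in replicate 2, so a gene's TPM depends on how much of the library other RNA classes took. A floor of 3 counts equalled 0.140 CPM (counts per library total, scaled like TPM but not by length) in replicate 1 and 0.101 CPM in replicate 2. A gene counted as expressed when both libraries reached 1 TPM. The cell type label was checked against markers: 9 of 10 macrophage markers were expressed, led by Mrc1 with 125 TPM in replicate 1 and 192 TPM in replicate 2. In the first of 2 deposited quantifications, the source of all values unless the second is named, none of 8 T and NK cell markers, 5 B cell, 7 neutrophil, 4 erythroid, 7 striated muscle and 6 testis markers was expressed. The largest summed level among these other lists was 1.53 TPM, for the T and NK cell list in replicate 1. In the second quantification 4 of these 37 markers reached 1 TPM in both libraries: Cd3d (13.0 TPM in replicate 1 and 28.8 TPM in replicate 2), Cd4 (1.81 TPM in replicate 1 and 2.29 TPM in replicate 2), Ms4a1 (1.03 TPM in replicate 1 and 1.87 TPM in replicate 2) and Acrv1 (1.10 TPM in replicate 1 and 3.70 TPM in replicate 2). The part of other cells in the members' values was not tested.

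Most of the subunit genes were present on chromatin, at low levels for expressed genes. Of the 78 members, 51 (65.4%) were expressed, against 7633 of 22028 protein-coding genes (34.7%). The median member had 1.66 TPM in replicate 1 and 2.80 TPM in replicate 2, a mean of 2.23 ± 0.806 TPM (SD, n = 2). The expressed members had a median of 2.82 TPM in replicate 1 and 4.06 TPM in replicate 2, against 5.82 TPM in replicate 1 and 10.4 TPM in replicate 2 over all expressed protein-coding genes. Ranked among expressed protein-coding genes by mean TPM, the median expressed member stood at the percentile 24.8, with quartiles at 13.7 and 48.9. Only 12 of the 51 lay above the protein-coding median and 1, Atp5b, lay above the percentile 90. The place in the ranking depends on what is ranked. All 78 members among all protein-coding genes, silent genes included, had a median percentile of 69.7, and the second quantification described below put the expressed members at 43.2.

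The counts behind these levels were small. The median member had 26.5 estimated counts in replicate 1 and 47.1 in replicate 2, and 19 members in replicate 1 and 15 in replicate 2 had fewer than 10. Together the members held 0.0601% of protein-coding counts in replicate 1 and 0.0607% in replicate 2. Gene size was examined beside the ranking, since the members are short. Among the protein-coding genes with a genomic span inside the expressed members' interquartile range (4446 to 14162 bases), 28.2% were expressed, and the expressed ones had a median percentile of 41.1. Across the 51 expressed members, level and span were weakly related (Spearman's rho 0.16), a description over genes that share the same libraries.

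Genes for ribosomal proteins gave a scale for other housekeeping complexes. Of 83 cytosolic ribosomal protein genes 79 were expressed, with medians of 10.5 TPM in replicate 1 and 15.4 TPM in replicate 2 and a median percentile of 64.0. Of 78 mitochondrial ribosomal protein genes 46 were expressed, with medians of 1.98 TPM in replicate 1 and 3.67 TPM in replicate 2 and a percentile of 16.6. The expressed respiratory chain genes thus stood between these groups, nearer to the mitochondrial ribosome. These differences between lists are descriptions of the same 2 libraries and were not tested.

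**Figure D1:**
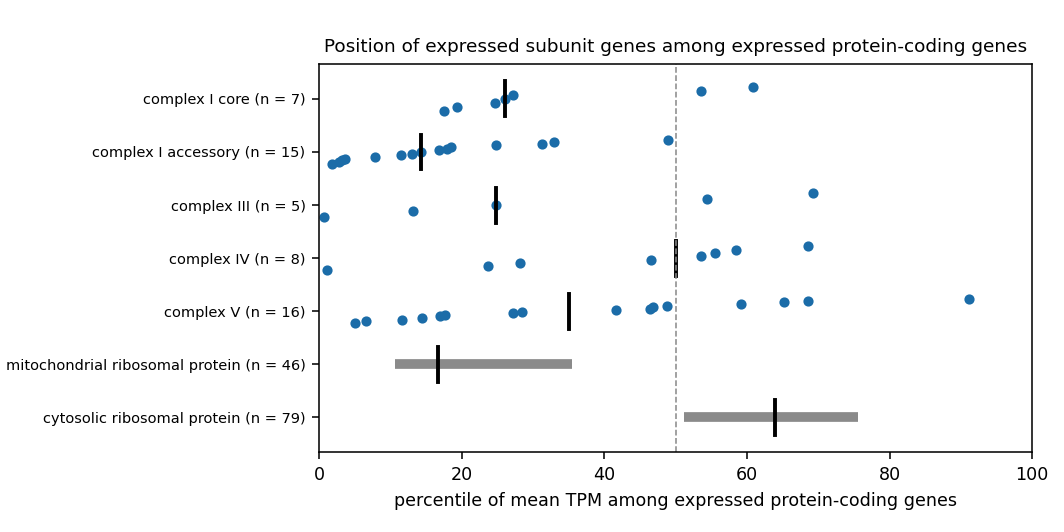
Percentile of mean TPM among the 7633 expressed protein-coding genes (x axis) for the expressed members of each complex (1 point per gene) and for 2 lists of ribosomal protein genes (grey bars, interquartile range). Vertical black lines are medians and the dashed line is the protein-coding median. The complex IV median sits at 50.0 and that of the complex I accessory genes at 14.3.

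All 7 core genes of complex I were expressed. Core subunits carry the flavin and the iron-sulfur clusters and have relatives in bacteria. Ndufs1, which holds several of the clusters at the NADH end, had 8.57 TPM in replicate 1 and 15.2 TPM in replicate 2. It was the highest core gene by mean, at the percentile 60.8.

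The core genes named next were lower in both libraries. Ndufs3 had 2.80 TPM in replicate 1 and 4.92 TPM in replicate 2. Ndufv1, which binds the flavin and NADH, had 3.81 TPM in replicate 1 and 3.62 TPM in replicate 2, and Ndufs7, which holds the cluster next to ubiquinone, had 3.67 TPM in replicate 1 and 3.36 TPM in replicate 2. Ndufv1 and Ndufs7 were thus among the few members that were not higher in replicate 2. Ndufv2 (2.14 TPM in replicate 1 and 3.77 in replicate 2) and Ndufs8 (1.47 TPM in replicate 1 and 4.06 TPM in replicate 2), both carriers of iron-sulfur clusters, were the lowest core genes by mean. Within each library Ndufs3 was above Ndufv2 and Ndufs8, and Ndufv1 was above Ndufs7, while the order of Ndufs3 and Ndufv1 and that of Ndufv2 and Ndufs8 changed between the libraries.

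Accessory genes of complex I were lower and often below the threshold. Accessory subunits surround the core and are needed to assemble and stabilise it. Of 28 such genes 15 were expressed, with medians of 1.91 TPM in replicate 1 and 2.77 TPM in replicate 2 and a median percentile of 14.3, and none reached the protein-coding median. By mean TPM of both libraries the highest was Ndufa10 (5.35 TPM in replicate 1 and 10.5 in replicate 2). It was followed in that mean by Ndufa6, a subunit of the LYR motif family, with 2.25 TPM in replicate 1 and 7.14 TPM in replicate 2. Next by mean came Ndufs4, whose loss in mice is a standard model of complex I deficiency, with 3.52 TPM in replicate 1 and 5.35 TPM in replicate 2. Ndufa7 had 2.40 TPM in replicate 1 and 4.64 TPM in replicate 2. In replicate 1 Ndufs4 and Ndufa7 were both above Ndufa6, and in replicate 2 both were below it.

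At the lower end of the expressed accessory genes, Ndufv3 had 1.36 TPM in replicate 1 and 1.60 TPM in replicate 2, and Ndufa11 had 1.10 TPM in replicate 1 and 1.59 TPM in replicate 2. The remaining 13 accessory genes were under 1 TPM in at least 1 library. Ndufb4, Ndufb11, Ndufa1, Ndufa5, Ndufa2 and Ndufs6 reached 1 TPM in replicate 2 only and Ndufs5 in replicate 1 only, while Ndufc2, Ndufc1, Ndufa8, Ndufa13, Ndufb3 and Ndufb6 stayed below it in both. Their means ran from 0.365 TPM for Ndufb6 to 1.56 TPM for Ndufb4, and each had at least 1 estimated count in both libraries.

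In complex III, genes for the large core proteins and the hinge protein led. Uqcrc1 encodes a core protein facing the matrix. It had 14.7 TPM in replicate 1 and 18.7 TPM in replicate 2 and stood at the percentile 69.2 by mean TPM. Uqcrh, which encodes the acidic hinge protein by which cytochrome c1 meets cytochrome c, had 6.26 TPM in replicate 1 and 12.8 TPM in replicate 2. Uqcrc2, the partner of Uqcrc1 in the enzyme, was well below it, at 3.50 TPM in replicate 1 and 3.59 TPM in replicate 2.

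The rest of complex III was near the threshold. Uqcrb had 1.89 TPM in replicate 1 and 2.83 TPM in replicate 2, and Uqcr10 had 1.28 TPM in replicate 1 and 1.09 TPM in replicate 2 from 7 counts in each library. Uqcrfs1, which encodes the Rieske iron-sulfur protein, had 0.960 TPM in replicate 1 and 1.92 TPM in replicate 2, Uqcrq had 0.980 TPM in replicate 1 and 2.86 TPM in replicate 2, and Uqcr11 had 0.610 TPM in replicate 1 and 0.950 TPM in replicate 2. Uqcrc1 and Uqcrc2 are present in equal numbers in the enzyme, and their ranges do not overlap in this quantification. In the second quantification they do, with 18.3 TPM of Uqcrc1 in replicate 1 and 27.6 TPM in replicate 2, and 10.6 TPM of Uqcrc2 in replicate 1 and 21.2 TPM in replicate 2. Within each library Uqcrc1 was above Uqcrc2 there too, so the overlap is across libraries.

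Among expressed genes, those of complex IV had the highest median of the 5 groups. The 8 that were expressed had medians of 6.78 TPM in replicate 1 and 8.34 TPM in replicate 2, at the percentile 50.0, while the other 9 of 17 were not expressed. Over all 17 the medians were 1.14 TPM in replicate 1 and 1.77 TPM in replicate 2, against 2.83 TPM in replicate 1 and 5.15 TPM in replicate 2 over all 18 complex V genes. Cox7c had 9.32 TPM in replicate 1 and 23.1 TPM in replicate 2. Cox6c had 6.43 TPM in replicate 1 and 15.4 TPM in replicate 2. Both were more than 2-fold higher in replicate 2 on the TPM scale, which is above the shift of expressed protein-coding genes given below.

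Cox5a and Cox6b1 were closer between the libraries. Cox5a had 7.12 TPM in replicate 1 and 12.7 TPM in replicate 2. Cox6b1, a subunit on the cytochrome c side, had 8.52 TPM in replicate 1 and 9.99 TPM in replicate 2. The lowest expressed genes were Cox7a2 (2.82 TPM in replicate 1 and 4.02 TPM in replicate 2) and Cox6a1 (1.14 TPM in replicate 1 and 1.39 TPM in replicate 2). Ndufa4, whose product was first assigned to complex I, was under the threshold in replicate 1 with 0.880 TPM and had 1.77 TPM in replicate 2.

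The alternative forms of complex IV subunits differed with the tissue they are known from in the first quantification. Cox6a1, the form found in most tissues, was expressed at the values above, while the heart and muscle form Cox6a2 had 0 TPM in replicate 1 and 0.0700 TPM in replicate 2. Cox6b1 was expressed, and the testis form Cox6b2 had no counts in either library. Cox7a2 was expressed, and the heart and muscle form Cox7a1 had 0.280 TPM in replicate 1 from 2 counts and 0 TPM in replicate 2.

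Cox7b and Cox8a had counts but did not reach 1 TPM in both libraries. Cox7b had 0.970 TPM in replicate 1 and 2.94 TPM in replicate 2, against no counts of the testis form Cox7b2. Cox8a had 1.43 TPM in replicate 1 and 0.800 TPM in replicate 2, against no counts of the muscle form Cox8b or the testis form Cox8c. Cox6b2, Cox7b2, Cox8b, Cox8c and the other identifier of Atp5o were the 5 members with a TPM of 0 in both libraries. In the second quantification the muscle forms Cox7a1, at values given below, and Cox8b (0.522 TPM in replicate 1 and 1.32 TPM in replicate 2) were above 0, as were Cox6a2 (0.142 TPM in replicate 1 and 0.242 TPM in replicate 2) and Cox7b2 (0.331 TPM in replicate 1 and 0.340 TPM in replicate 2), while Cox6b2 and Cox8c were at 0. A count of 0 allows a level of up to 3 counts, so the forms with no counts in the first quantification were there below 0.140 CPM in replicate 1 and 0.101 CPM in replicate 2.

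Complex V held the highest member and had 16 of 18 genes expressed, with medians of 3.62 TPM in replicate 1 and 6.96 TPM in replicate 2. Atp5b (chromosome 10, 128083273 to 128090391, plus strand, mm10) encodes the catalytic beta subunit. It had 48.9 TPM in replicate 1 and 69.8 TPM in replicate 2, a mean of 59.3 ± 14.7 TPM (SD, n = 2), from 1017 counts in replicate 1 and 1645 in replicate 2. In TPM of whole genes, at the percentile 91.2, Atp5b stood apart from all other members in both libraries. Most of that TPM was on noncoding isoforms, with 46.3% in replicate 1 and 52.6% in replicate 2 on retained_intron transcripts. In counts Atp5b was also highest but less separate. Atp5a1 had 703 counts in replicate 1 and 1152 in replicate 2, and Atp5l had 548 in replicate 1 and 1313 in replicate 2.

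Atp5a1, which encodes the alpha subunit that alternates with beta in the same ring, had 12.7 TPM in replicate 1 and 19.7 TPM in replicate 2. The enzyme holds equal numbers of alpha and beta, and the ranges of their whole genes do not overlap. The protein-coding transcripts of Atp5a1 had 5.25 and 4.16 TPM in replicate 1 and 9.52 and 4.86 TPM in replicate 2. Together they were above the protein-coding transcript of Atp5b in each library, so the order of the genes depends on the transcripts read. Atp5j, which encodes a subunit of the peripheral stalk, had 8.11 TPM in replicate 1 and 20.0 TPM in replicate 2. The lowest expressed genes were those of the small central stalk subunits, Atp5e (1.52 TPM in replicate 1 and 2.11 in replicate 2) and Atp5d (1.18 TPM in replicate 1 and 2.17 TPM in replicate 2).

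Atp5g1, Atp5g2 and Atp5g3 encode the same mature subunit c, which forms the proton-driven ring, from separate chromosomes. Over the last 225 coding bases, 75 codons, their translations were identical, yet 57 positions differed among the 3 genes, 52 of them at the last base of a codon. Pairwise identity was 84.9% between Atp5g1 and Atp5g2, 80.0% between Atp5g1 and Atp5g3 and 78.7% between Atp5g2 and Atp5g3. The last 75 coding bases before the stop codon show how reads can be told apart although the protein cannot. Capitals mark the 20 positions that differ among the genes (GENCODE M21 transcripts, coding strand).
Atp5g1: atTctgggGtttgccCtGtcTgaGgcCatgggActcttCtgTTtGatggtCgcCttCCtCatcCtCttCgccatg
Atp5g2: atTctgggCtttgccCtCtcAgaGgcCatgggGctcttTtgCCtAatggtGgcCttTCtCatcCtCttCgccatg
Atp5g3: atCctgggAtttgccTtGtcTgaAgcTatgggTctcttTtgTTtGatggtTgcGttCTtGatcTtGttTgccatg

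The 3 genes were present at unequal levels. Atp5g3 (chromosome 2) had 7.43 TPM in replicate 1 and 14.9 TPM in replicate 2. Atp5g2 (chromosome 15) had 2.20 TPM in replicate 1 and 3.19 TPM in replicate 2, and Atp5g1 (chromosome 11) had 0.160 TPM in replicate 1 and 0.320 TPM in replicate 2. In TPM of whole genes the order Atp5g3, Atp5g2, Atp5g1 held in both libraries with no overlap of their ranges. Most of the Atp5g3 TPM was on noncoding isoforms, the largest with 3.49 TPM in replicate 1 and 6.86 TPM in replicate 2. Its protein-coding transcripts had 0.460 and 0.850 TPM in replicate 1 and 2.64 and 0 TPM in replicate 2. All annotated Atp5g2 transcripts are protein-coding, so on coding transcripts Atp5g3 was below Atp5g2 in both libraries. In the second quantification Atp5g3 was again highest (9.58 TPM in replicate 1 and 27.3 TPM in replicate 2) and Atp5g1 lowest (1.08 TPM in replicate 1 and 1.86 TPM in replicate 2). The coding transcripts of Atp5g3 had 2.12 and 2.03 TPM there in replicate 1 and 13.1 and 2.22 TPM in replicate 2. Together they were above Atp5g2 in that quantification (3.05 TPM in replicate 1 and 5.50 TPM in replicate 2). In counts the order of the lower 2 did not hold. Atp5g1 had 15.2 counts in replicate 1 and 46.0 in replicate 2, most of them on a transcript of 4715 bases. Atp5g2 had 27.6 counts in replicate 1 and 43.6 in replicate 2. Atp5g2 shares 40.2% of its words of 31 bases with 5 other annotated genes, and Atp5g1 shares 13.9% with 1717. Reads of both may thus be split between loci.

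**Figure D2:**
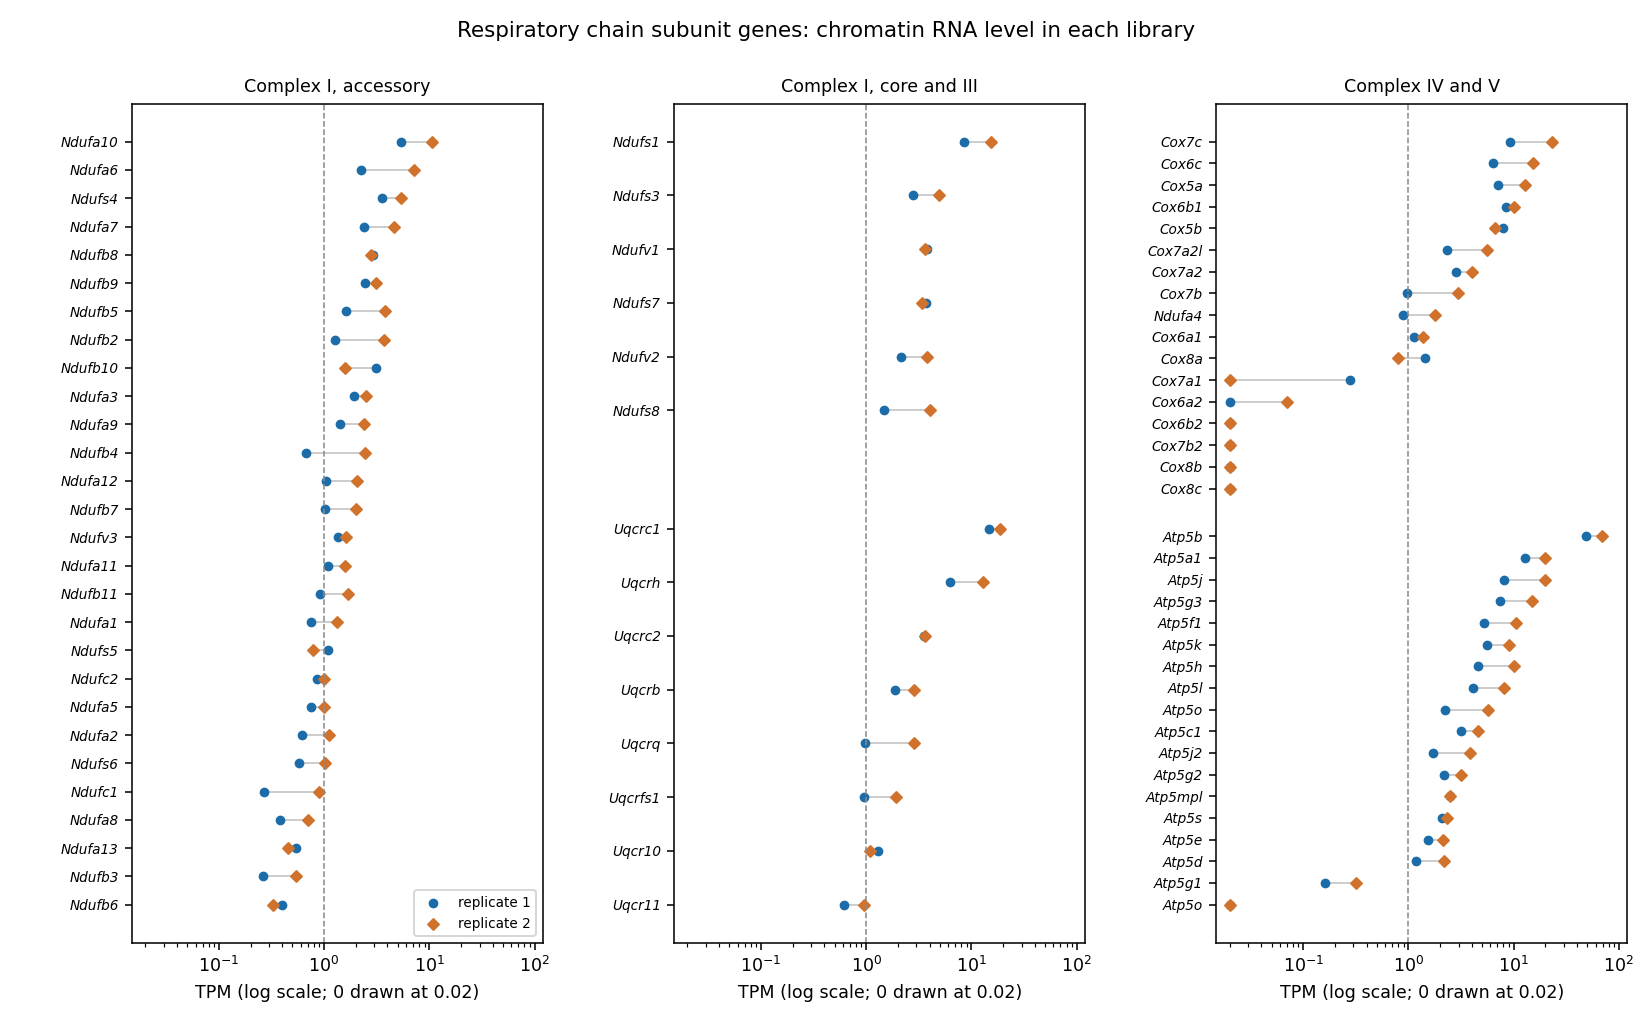
TPM of 77 of the 78 members on a log scale (x axis), with replicate 1 as blue circles and replicate 2 as orange diamonds joined by a line, ordered by mean within each complex; values of 0 are drawn at 0.02, where coinciding marks overlap. The dashed line is 1 TPM. Atp5b stands highest. Among the muscle and testis forms of complex IV subunits, Cox6b2, Cox7b2, Cox8b and Cox8c lie at the left edge in both libraries. Cox6a2 lies there in replicate 1 only and Cox7a1 in replicate 2 only.

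The libraries ranked the members alike but differed in level. Spearman's rho of TPM between replicate 1 and replicate 2 was 0.92 over the 78 members, a description. Of the 51 expressed members 7 had the higher TPM in replicate 1 and 44 in replicate 2. Expressed protein-coding genes were shifted in the same direction. Log2 ratios of TPM + 1, replicate 1 over replicate 2, had a median of -0.54 over expressed members and -0.67 over all expressed protein-coding genes. The latter is 1.59-fold higher in replicate 2 on the scale of TPM + 1, which understates the shift in TPM (medians of 5.82 in replicate 1 and 10.4 in replicate 2). Relative to that shift the members' median was 0.13, and 19 of the 51 lay below 0. RNA input, depth and the share of protein-coding RNA differed between the libraries in the same direction, and their part in these ratios was not tested.

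Counts of each gene were compared between the libraries by a two-sided exact binomial test against the share set by edgeR's TMM scaling, adjusted by Benjamini-Hochberg over all 14442 genes whose counts summed to at least 20. A call needed an adjusted p below 0.05 and a 2-fold difference. The test compares 2 libraries and allows for counting error only. Of 64 members tested, 14 of which were not expressed, 3 were called, against 12.0% of all genes tested. In the direction of replicate 1 there were 2 calls beside a background of 4.20%, and in the direction of replicate 2 there was 1 beside 7.84%. Among protein-coding genes only, 3.12% of members tested against 4.04% of all were called higher in replicate 1, and 1.56% against 4.90% higher in replicate 2. With an adjusted p below 0.05 at any fold there were 18 members, 10 higher in replicate 1 and 8 higher in replicate 2, or 28.1% of those tested, against 51.8% of all genes tested. These shares are not at equal counts, and the test finds smaller differences where counts are higher. Expressed members had medians of 44.0 counts in replicate 1 and 101 in replicate 2. Expressed protein-coding genes had 322 in replicate 1 and 658 in replicate 2.

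The 3 called members had 46.2 counts or fewer in each library. Ndufb10, an accessory subunit of complex I, had 31 counts in replicate 1 and 25 in replicate 2, a TMM-scaled log2 ratio of 1.34 (adjusted p = 0.00152, exact binomial test). Cox8a had 13 counts in replicate 1 and 8 in replicate 2, a log2 ratio of 1.73 (adjusted p = 0.0186, exact binomial test). Ndufb4 had 10.2 counts in replicate 1 and 46.2 in replicate 2, a log2 ratio of -1.18 (adjusted p = 0.0314, exact binomial test).

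The second quantification did not call Ndufb10 or Cox8a. There Ndufb10 had 4.84 TPM in replicate 1 and 8.92 TPM in replicate 2, a TMM-scaled log2 ratio of 0.33 (adjusted p = 0.194, exact binomial test). Cox8a had 4.66 TPM in replicate 1 and 12.7 TPM in replicate 2, a TMM-scaled log2 ratio of -0.23 (adjusted p = 0.395, exact binomial test). Ndufb4 was called in both quantifications, in the second with 0.759 TPM in replicate 1 and 3.90 TPM in replicate 2, a log2 ratio of -1.38 (adjusted p = 0.00112, exact binomial test). Its protein-coding transcript shares 38.3% of its 31-base words with pseudogenes such as Ndufb4c, so reads of that transcript may be split between loci. Most counts of Ndufb4 in the first quantification lay on a retained_intron transcript that was not scanned (6.99 in replicate 1 and 35.2 in replicate 2). With scaling by library size alone, 8 members were called, all higher in replicate 2, and neither Ndufb10 nor Cox8a was among them.

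**Figure D3:**
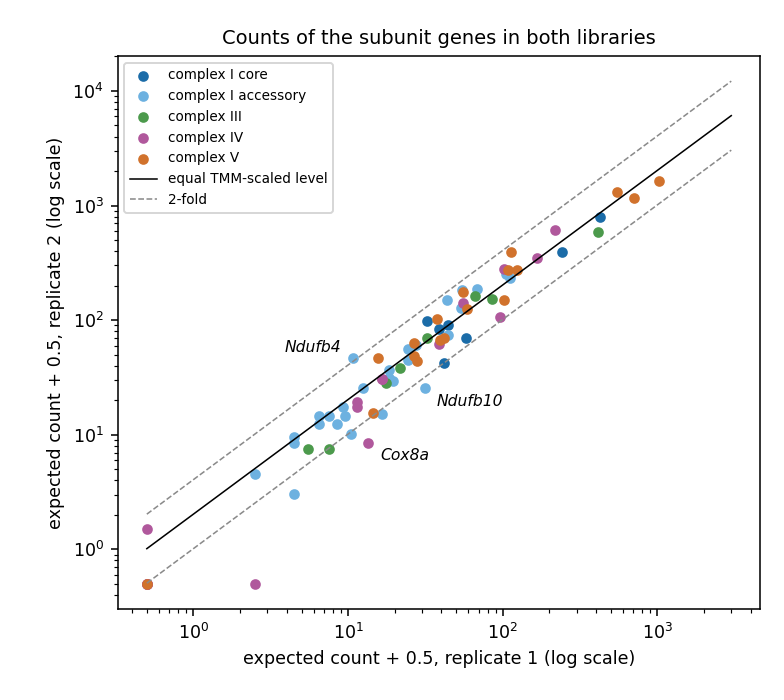
Estimated counts + 0.5 of each member in replicate 1 (x axis) and replicate 2 (y axis), both on log scales and coloured by complex. The solid line is equal TMM-scaled level and the dashed lines are 2-fold either way; the 3 named genes are those called by the binomial test, with Ndufb10 and Cox8a outside the 2-fold lines on the side of replicate 1 and Ndufb4 on the side of replicate 2.

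A large part of the members' RNA was assigned to transcripts with a retained intron. GENCODE marks a transcript as retained_intron when it keeps intronic sequence relative to coding transcripts of the same gene, and 38 expressed members have at least 1. In these the median share of a gene's transcript TPM on such transcripts was 65.2%, with quartiles at 46.1% and 80.4%, and it was over 50% in 25 of the 38. Over the 5233 expressed protein-coding genes with such a transcript the median was 45.9%. Summed over the expressed and unexpressed members together, retained_intron transcripts held 46.4% of TPM in replicate 1 and 48.3% in replicate 2, against 36.8% in replicate 1 and 39.4% in replicate 2 over expressed protein-coding genes.

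The share moved with gene size and with the method. Protein-coding genes in the expressed members' span range had a median of 53.6%, cytosolic ribosomal protein genes 64.6% and mitochondrial ribosomal protein genes 59.3%, so other short housekeeping genes had similar shares. In the second quantification the members' median was 52.0%, against 44.1% for expressed protein-coding genes and 53.5% for those in the span range. Cytosolic ribosomal protein genes had 56.8% there and mitochondrial ones 46.4%, so the members were not above genes of their size. In the first quantification the members' median was 59.5% in replicate 1 and 70.4% in replicate 2. By complex the medians were 71.0% in the complex I core, 77.1% in its accessory genes, 46.7% in complex III, 66.7% in complex IV and 59.8% in complex V.

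Single genes spread widely around these medians. Ndufa6 was highest, with 90.2% in replicate 1 and 92.4% in replicate 2. Ndufa7 (79.2% in replicate 1 and 97.6% in replicate 2) and Ndufb7 (80.4% in replicate 1 and 95.0% in replicate 2) followed. The lowest were Uqcrc2 (26.9% in replicate 1 and 10.9% in replicate 2), Atp5a1 (26.0% in replicate 1 and 27.1% in replicate 2) and Cox7a2l, known as a factor for supercomplex assembly (29.1% in replicate 1 and 25.2% in replicate 2).

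Agreement between the libraries was uneven. Ndufa6, Atp5a1 and Cox7a2l differed by less than 5 percentage points between libraries, while Cox6a1, with 11 counts in replicate 1 and 17 in replicate 2, had 0% in replicate 1 and 100% in replicate 2. Over the 38 genes Spearman's rho was 0.63 between replicate 1 and replicate 2 and 0.47 between the first and second quantification, and 0.04 between the share and mean TPM. Ndufa7 had a share of 11.4% in the second quantification, far below its value in the first.

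**Figure D4:**
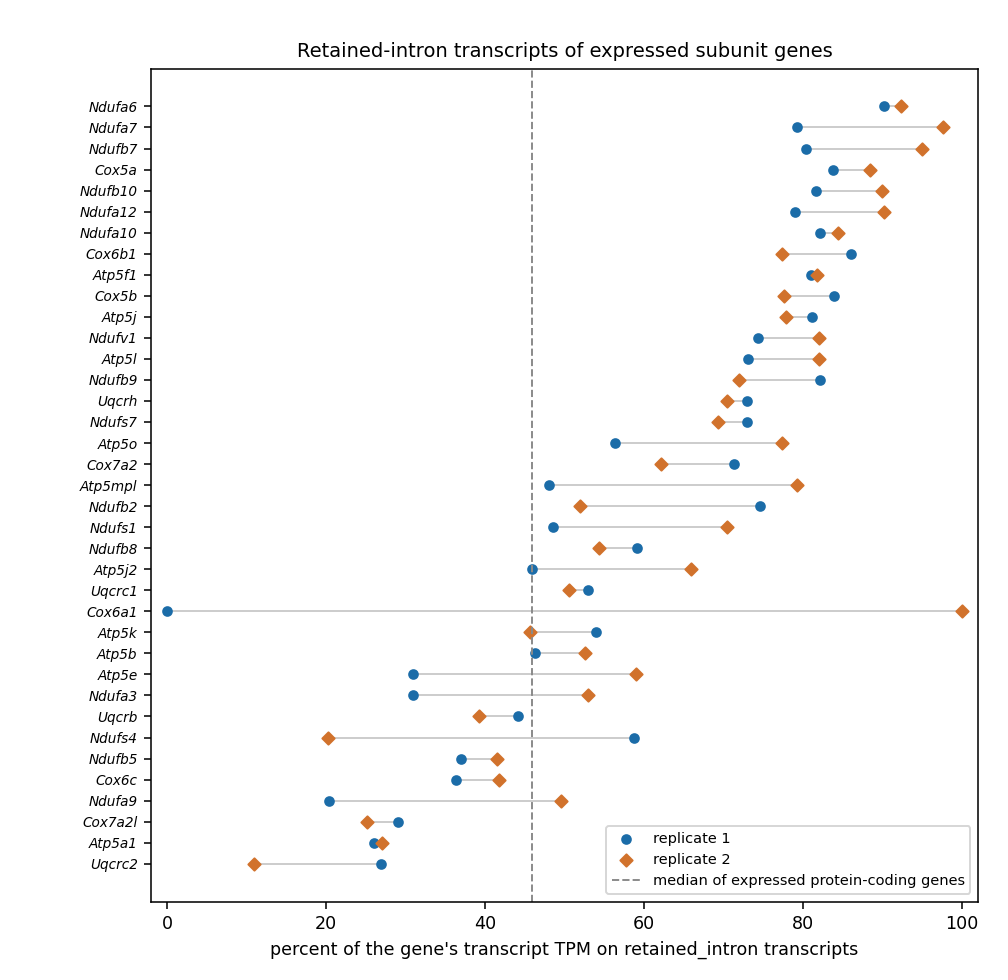
Percent of transcript TPM for 37 of the 38 expressed members that have such transcripts, as the share on retained_intron transcripts (x axis), with replicate 1 as blue circles and replicate 2 as orange diamonds, ordered by mean. The dashed line is the median of expressed protein-coding genes, 45.9%. Ndufa6 lies highest at 91.3% and Uqcrc2 lowest at 18.9%, and the line of Cox6a1 spans the whole axis.

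The members' levels depended on which deposited quantification was read. The second quantification, made from reads and a transcript index without a genome alignment, put 64 members at 1 TPM or more in both libraries and gave expressed members a median of 1.84 times their level in the first, against 1.45 times for expressed protein-coding genes. Rank order was largely shared (Spearman's rho 0.86 over 78 members). Atp5b hardly differed, with 48.9 TPM in replicate 1 and 72.9 TPM in replicate 2 in the second quantification.

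Among members above 0 in the first quantification, the 5 largest ratios of the second to the first were those of Cox7a1, Ndufa7, Ndufa12, Cox8a and Ndufb2. Cox7a1 had 6.04 TPM in replicate 1 and 7.93 TPM in replicate 2 in the second quantification, 49.9 times its mean in the first. The first quantification gave it 2 counts in all. No striated muscle marker reached 1 TPM in both libraries in either quantification. The highest of them in the second, Ckm, had 0.974 TPM in replicate 1 and 2.07 TPM in replicate 2. The source of the Cox7a1 values was not tested. Ndufa7 had 23.5 TPM in replicate 1 and 35.8 TPM in replicate 2 in the second, 8.42 times the first, of which a processed_transcript isoform of 371 bases with no counts in the first took 18.8 TPM in replicate 1 and 25.6 TPM in replicate 2.

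Ndufa12 was 7.94 times and Ndufb2 6.84 times higher in the second quantification, and Cox8a 7.80 times. For Ndufb2 a retained_intron transcript took 12.5 TPM in replicate 1 and 16.7 TPM in replicate 2. Sequence shared with other genes was counted as a further limit on these estimates. Only the members' protein-coding transcripts were scanned for it. Of the 78 members 49 share at least 1 word of 31 bases with another annotated gene, 45 with a pseudogene, and 28 share over 10% of their words. The shares were over 50% for Atp5l (69.6%), Uqcrb (54.3%) and the silent identifier of Atp5o (94.0%), while the coding transcripts of Cox7a1, Cox8a and Ndufb10 share none. These shares do not cover retained_intron transcripts. In the first quantification a retained_intron transcript held 538 of the 548 counts of Atp5l in replicate 1 and 1299 of 1313 in replicate 2. The coding transcripts of Ndufb10 had no counts there.

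**Figure D5:**
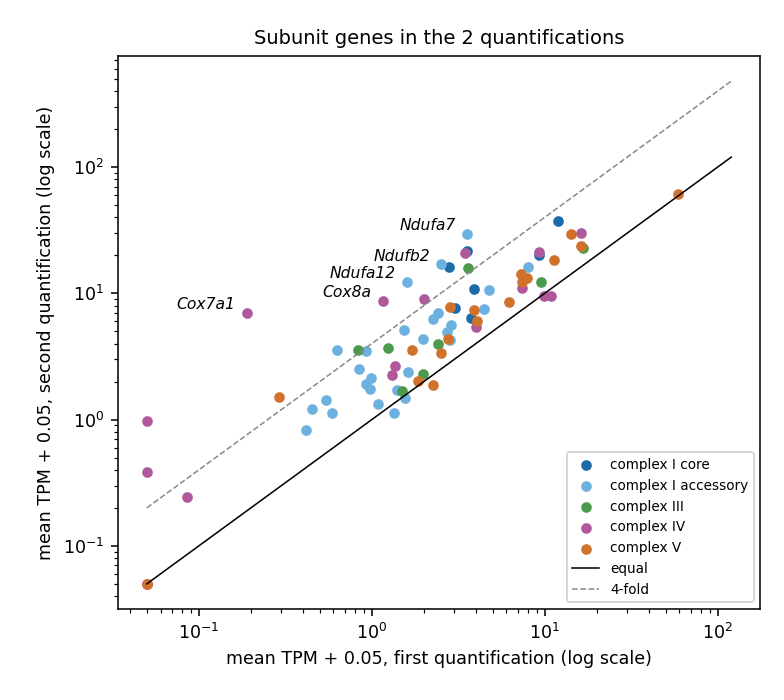
Mean TPM + 0.05 of each member in the first quantification (x axis) and the second (y axis), both on log scales and coloured by complex. The solid line is equality and the dashed line 4-fold; the 5 named genes have the largest ratios of the second to the first among members above 0 in the first, from 6.84 for Ndufb2 to 49.9 for Cox7a1.

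Many members lie close to other genes. The annotation has 34 members that overlap another gene, 26 of them on the opposite strand, and in 14 the opposite gene was expressed. Whether the counting used strand is not stated, so reads in such overlaps cannot be assigned with certainty. Cox6c, for example, shares 5344 of its 12361 bases with Vps13b on the other strand, which had 50.8 TPM in replicate 1 and 78.8 TPM in replicate 2, above Cox6c itself.

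Starts of opposite-strand genes within 1000 bases were found for 33 members, for 27 of them the start of a protein-coding gene, and in 13 the neighbour was expressed. Levels on the 2 sides of a shared start region were often unequal. Ndufa2 had 0.620 TPM in replicate 1 and 1.12 TPM in replicate 2, while Ik, whose start lies 99 bases away, had 74.0 TPM in replicate 1 and 183 TPM in replicate 2. Ndufa7 starts 10 bases from Rps28 (13.4 TPM in replicate 1 and 11.9 in replicate 2), and Ndufs1 starts 8 bases from Eef1b2, a translation elongation factor gene (8.21 TPM in replicate 1 and 12.2 TPM in replicate 2), at a level close to its own. Atp5j starts 700 bases from Gabpa, which encodes the DNA-binding subunit of nuclear respiratory factor 2, a known activator of respiratory chain genes, and which had 5.48 TPM in replicate 1 and 12.4 TPM in replicate 2.

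Promoters were searched for motifs of factors known to act at such genes. RefSeq promoters (GRCm38.p6, 250 bases before to 50 after the start) were matched to 64 of the 78 members through 63 RefSeq genes. The NRF1 motif GCGCATGCG, searched on both strands as were all motifs, occurred in 8 of 63 genes (12.7%), against 1.95% of 27025 genes with a promoter and 4.54% of expressed protein-coding genes. Its carriers were Atp5g2, Atp5k, Atp5l, Cox6a1, Ndufa8, Ndufa11, Uqcr11 and Uqcrc1. The YY1 motif AAGATGGCG occurred in 7 (11.1%), against 1.64% of all genes and 4.21% of expressed ones, in Atp5j, Atp5j2, Ndufa9, Ndufc1, Ndufs4, Ndufs6 and Ndufs7.

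Shares of the remaining motifs follow in the same form. The GABPA motif CCGGAAGT occurred in 5 genes (7.94%), Atp5h, Cox8a, Ndufs3, Uqcr11 and Uqcrh, against 4.31% of all and 11.0% of expressed protein-coding genes. The CCAAT box (CCAAT) occurred in 42.9% of members, 41.1% of all genes and 41.5% of expressed ones. The GC box (GGGCGG) occurred in 38.1% of members, against 38.2% of all and 71.5% of expressed genes, and the TATA box (TATAAA) in 11.1%, against 15.7% of all and 8.43% of expressed genes. The NF-kB motif GGGACTTTC was in 1 of the 63, Ndufv3, or 1.59%, against 0.403% of all and 0.538% of expressed genes. A match is only a run of letters in the window, and these shares were not tested.

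Stretches upstream of 3 members show these motifs in place: Atp5b, the highest member, Cox6a1, a carrier of the NRF1 motif, and Uqcrh, a carrier of the GABPA motif. Each is printed 5′ to 3′ on the gene's own strand up to the base before the GENCODE start, with motif matches on either strand in capitals (RefSeq promoters, GRCm38.p6). Atp5b (chr10:128083057-128083272, plus strand) has 5 CCAAT matches and 2 GC boxes. Cox6a1 (chr5:115348982-115349208, minus strand) has a run matching the NRF1 motif on both strands, 1 CCAAT match and 2 GC boxes. Uqcrh (chr4:116075072-116075320, minus strand) has 1 CCAAT match and, at its end, 1 GABPA match.
Atp5b: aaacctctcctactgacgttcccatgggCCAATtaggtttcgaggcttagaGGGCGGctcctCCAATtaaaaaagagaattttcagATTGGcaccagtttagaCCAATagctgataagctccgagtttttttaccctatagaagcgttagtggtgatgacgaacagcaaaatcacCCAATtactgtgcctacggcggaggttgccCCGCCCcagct
Cox6a1: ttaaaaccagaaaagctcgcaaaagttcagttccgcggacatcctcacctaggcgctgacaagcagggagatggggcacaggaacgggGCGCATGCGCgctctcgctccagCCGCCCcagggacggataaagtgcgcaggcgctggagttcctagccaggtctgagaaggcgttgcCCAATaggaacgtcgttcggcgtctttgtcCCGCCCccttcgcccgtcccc
Uqcrh: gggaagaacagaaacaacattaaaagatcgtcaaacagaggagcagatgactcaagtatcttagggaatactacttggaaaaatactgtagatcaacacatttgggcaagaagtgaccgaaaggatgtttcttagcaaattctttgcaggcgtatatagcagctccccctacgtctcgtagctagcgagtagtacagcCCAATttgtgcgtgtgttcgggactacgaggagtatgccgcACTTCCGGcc

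Genes of the pathway outside the symbol rule were read from lists. Of 4 complex II genes 2 were expressed: Sdha, which encodes the flavoprotein of succinate dehydrogenase, with 17.4 TPM in replicate 1 and 28.7 TPM in replicate 2, and Sdhb with 3.35 TPM in replicate 1 and 4.71 TPM in replicate 2. Of 8 annotated subunit and carrier genes outside the rule 4 were expressed. Cox4i1, the main form of Cox4, led with 11.5 TPM in replicate 1 and 16.5 TPM in replicate 2, followed by Ndufab1, the mitochondrial acyl carrier protein, with 4.52 TPM in replicate 1 and 9.06 TPM in replicate 2, and by Cycs, which encodes cytochrome c, with 2.59 TPM in replicate 1 and 8.82 TPM in replicate 2.

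AA467197 was the only gene of these lists called in the direction of replicate 2 apart from a mitochondrially encoded one. It was 1 of 5 genes tested in its list, beside 7.84% of all genes tested that were called in that direction. Its product is known to take the place of Ndufa4 in complex IV in inflammation. It had 0.180 TPM in replicate 1 and 3.32 TPM in replicate 2, from 3 counts in replicate 1 and 55 in replicate 2, a log2 ratio of -3.17 (adjusted p = 2.8e-06, exact binomial test). In the second quantification AA467197 had 1.81 TPM in replicate 1 and 7.76 TPM in replicate 2, a log2 ratio of -1.16 (adjusted p = 6.37e-06, exact binomial test). Ndufa4 had 16 counts in replicate 1 and 30 in replicate 2 and was not called (log2 ratio 0.12, adjusted p = 0.832, exact binomial test).

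Assembly factors and regulators were read in the same way. Of 45 assembly factor genes 20 were expressed and none of 35 tested was called between the libraries by the exact binomial test with its 2-fold rule, beside the 12.0% of all genes tested given above. Cox17, a copper chaperone for complex IV, was highest with 16.6 TPM in replicate 1 and 51.0 TPM in replicate 2, a mean above that of every member but Atp5b. Its log2 ratio of -0.82 (adjusted p = 4.46e-65, exact binomial test) fell short of 2-fold. Ttc19, a complex III factor, had 10.1 TPM in replicate 1 and 19.1 TPM in replicate 2.

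Of 13 regulators 9 were expressed and none of 11 tested was called by the same rule, beside the same background of 12.0%. Counts of 0 in lists of this size are given as descriptions. Esrra, an orphan nuclear receptor gene, had 18.3 TPM in replicate 1 and 21.9 TPM in replicate 2, Pprc1, a coactivator of the PGC-1 family, had 15.4 TPM in replicate 1 and 18.8 TPM in replicate 2, and Nrf1 had 7.59 TPM in replicate 1 and 16.3 TPM in replicate 2. Ppargc1a, which encodes PGC-1 alpha, had no counts in either library.

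Mitochondrially encoded subunits were also present in the chromatin fraction. Of 13 such genes 8 were expressed, with means of 10.8 to 132 TPM, led by mt-Co1 with 136 TPM in replicate 1 and 128 TPM in replicate 2. The quantifications differed strongly there. In the first, mt-Nd4l had 26.4 TPM in replicate 1 and was listed at 0 in replicate 2, whereas the second gave 17.6 TPM in replicate 1 and 22.5 TPM in replicate 2. Likewise mt-Nd3 and mt-Atp6 were listed at 0 in replicate 2 of the first quantification and had 15.9 TPM and 22.6 TPM there in the second. Calls between the libraries are therefore not read for this list.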

How the data were processed

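Chromatin-fraction total RNA of lipid A-treated macrophages was read in 2 libraries of 1 group. The members and gene lists were chosen with earlier results of these data known.

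For each library the authors deposited gene and transcript tables of expected counts, TPM and FPKM made from reads aligned to the GENCODE M21 transcriptome on mm10 (the first quantification), with columns named as RSEM writes them. The deposited posterior standard deviations of the counts were above 0 in 16 members in replicate 1 and 23 in replicate 2. The authors also deposited a transcript table of estimated counts and TPM made from reads and a transcript index (the second quantification), with columns named as kallisto writes them, summed here per gene. For both, aligner, quantifier, versions and use of strand were not given in the sources used here. Deposited tables list annotated transcripts, so unspliced precursor RNA has no entry of its own.

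Symbols, types and positions came from GENCODE M21, and 26345 further entries that matched no annotated gene (0.409% of counts in replicate 1 and 0.277% in replicate 2) were left out. Levels are TPM, and ratios are on the log2(TPM + 1) scale, which understates differences of low genes. Rounded expected counts of genes with a sum of 20 or more were tested by a two-sided exact binomial test against the share set by TMM scaling (edgeR 4.0.16, R 4.3.3; scipy 1.17.1), with Benjamini-Hochberg adjustment; TMM factors were 0.824 and 1.21 in replicates 1 and 2. The procedure was run on counts simulated with counting (Poisson) error only, the error that the test assumes. That run cannot show how the test behaves where libraries differ by more than counting error. A chi-square of 489 per degree of freedom showed that the libraries were not copies of each other. No molecular identifiers are in these tables, so floors and the test cover counting error only.

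Named with values were the 4 highest and 2 lowest expressed members of each complex, the alternative forms, every member not expressed (with at least a range), every member called, the 5 largest differences between quantifications, and the 3 highest and 3 lowest retained intron shares; other named neighbours, motif carriers and pathway genes were examples chosen after their values were seen. The values of 1 member that this rule takes are not reported here, though they enter the counts and medians. Alternatives were the second quantification, FPKM, other thresholds, pseudocounts and scalings, no filter, and leaving out each library.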

Additional observations from a re-analysis of the deposited data

How the results depend on the processing

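The count of expressed members, 51, was 64 in the second quantification, 65 and 35 at thresholds of 0.5 and 2 TPM, and 53 to 61 when a library was left out, all within 1.5 times. The median level of 2.23 TPM was 5.49 in the second quantification and 11.5 with TPM rescaled over protein-coding genes; leaving out a library gave 1.66 to 2.80. The median percentile of 24.8 was 43.2 in the second quantification and 69.7 with no filter on expression, and 29.1 to 29.3 without a library. The relative log2 ratio of 0.13 was 0.08 with a pseudocount of 0.1, 0.04 from TMM-scaled counts and 0.11 in the second quantification, and it reversed to -0.35 with no filter, where unexpressed genes set the median. Calls between libraries went from 3 to 8 with scaling by library size alone, where 27.8% of all genes were called; DESeq2 size factors (1.42.0) and no count minimum gave the same 3 genes, and the second quantification gave 2, Ndufb4 and Ndufa13. The retained intron share of 65.2% was 52.0% in the second quantification and 59.5% to 70.4% without a library. Of 26 alternatives 14 left the result the same, 11 moved it and 1 reversed it. The same meant within 1.5 times for counts of members. For level, percentile and retained share it meant a difference below the SD of the 2 libraries. Ratios could only be labelled moved or reversed, and the median level without a library could only be labelled the same. The tally is thus not a measure of robustness. Apart from the no-filter ratio, the cause was not tested. Ratios and calls need both libraries, so leaving out a library gave no value. No paired analysis was possible because the series has 1 group.

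With 2 libraries from the same donor label, a median of 26.5 and 47.1 counts per member in replicates 1 and 2, and no untreated cells, members with few counts are the least certain.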

Other observations

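Symbols that met the naming pattern but had no protein-coding transcript numbered 8, all processed pseudogenes: Atp5c1-ps, Atp5k-ps2, Atp5l-ps1, Atp5l-ps2, Atp5l2-ps, Cox6c2, Uqcrh-ps1 and Uqcrh-ps2. In the first quantification 7 of them had no counts in either library. Atp5l-ps2 had 0 TPM in replicate 1 and 1.49 TPM in replicate 2, from 4.56 estimated counts, beside 4.08 TPM of Atp5l in replicate 1 and 8.18 TPM in replicate 2.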
